A study of Mus musculus with 18 samples.

Results

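The genes described here are the ubiquitin-specific proteases (USPs) of mouse liver, taken as every gene whose symbol starts with *Usp* followed by a number, with *Usp18* left aside. This pattern gave 55 of the 22524 genes in the count lists, and 42 of them reached the level for testing, among 13353 tested genes. RNA was measured in liver of 10 female *Rps2*-A226Y mice (A226Y) and 8 female wild-type mice (WT), 1 RNA-seq library per mouse, all 15 months old and of the C57BL/6 strain. The A226Y mice are heterozygous for a change of alanine to tyrosine in RPS2, a protein of the small (40S) ribosomal subunit placed near the site where the ribosome checks codons, and mice with this allele were made to study error-prone translation. Their mutant allele is switched on when Cre, driven by the ubiquitous CMV promoter, removes a stop cassette. Per the study's methods that removal was only partial, so that a liver holds cells with the active mutant allele and cells in which the targeted allele is still silenced, and the WT controls carry the same CMV-Cre transgene. The line came from embryonic stem cells of another inbred strain and was backcrossed to C57BL/6.

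*Rps2* itself, read from both alleles together, lay between 46.9 and 83.0 CPM (read counts scaled to TMM-adjusted library size) in A226Y livers (median 72.5) and between 104 and 143 CPM in WT livers (median 109), with no overlap between the genotypes. Its log2 fold change was −0.73 (SE 0.11, adjusted p = 0.000772, edgeR's quasi-likelihood test). Total counts per mouse ran from 23850565 to 62126131 in A226Y and from 25869192 to 34918732 in WT.

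Ubiquitin is attached to proteins by ligases as single units or chains, and deubiquitinases take it off again. USPs are the largest family of these enzymes. They are cysteine proteases whose catalytic domain is joined, in each member, to other domains that choose the substrate, so that single members act at the proteasome, on histones, on stalled ribosomes, on mitochondria or on signalling proteins. One gene caught by the symbol pattern is not of this family: *Usp6nl* encodes a GTPase-activating protein for Rab proteins and owes its name to a stretch of sequence shared with human USP6.

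The A226Y livers held more mRNA of 6 USP-named genes, *Usp9x*, *Usp34*, *Usp6nl*, *Usp32*, *Usp53* and *Usp40*, and of no member less, at an adjusted p under 0.05. The rise was 1.16-fold to 1.33-fold (from edgeR's log2 fold change). Without WT replicate 6 the number called higher was 14, beside 1268 of 13338 tested genes. Without A226Y replicate 29 it was 11, beside 1188 of 13320 tested genes. With all mice, 971 of 13353 genes were called higher. The background of the count of 6 is that 7.27% of all tested genes were called higher and 7.03% lower. At an unadjusted p under 0.05, 17 of the 42 tested members were higher (14.9% of all tested genes) and 1, *Usp30*, was lower (14.7%). Fold changes were small and leaned one way: 35 of the 42 members had a positive log2 fold change, against 49.0% of all tested genes, and the median was 0.10 for the members and −0.0044 for all genes. A further 8 members had positive changes with an adjusted p between 0.05 and 0.1. In no member were all A226Y mice above or all below every WT mouse, a separation found in the higher direction in 0.352% and in the lower direction in 0.285% of all tested genes. In whole tissue, fewer cells of a type and less RNA per cell cannot be told apart.

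USP transcripts are long. The longest annotated transcript of a tested member had a median length of 4760.5 bases, against 3349 bases for all tested genes, and 39 of the 42 members were above the latter value. Long genes as a whole had higher counts in A226Y than in WT livers. All tested genes were therefore divided by transcript length into 10 groups of equal size, from group 1 (the shortest) to group 10 (the longest). The median log2 fold change went from −0.08 in group 1 to 0.13 in group 10. Going from group 1 to group 10, the share of genes called higher was 2.03%, 3.69%, 3.53%, 3.6%, 5.48%, 5.58%, 7.14%, 8.64%, 12.7% and 20.4%.

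Members were found in the upper part of this range. Group 10 held 9 tested members, of which 4 were called higher (*Usp9x*, *Usp34*, *Usp6nl* and *Usp32*). Group 9 held 7 with 1 called (*Usp53*), group 8 held 11 with 1 called (*Usp40*), and the 15 members in the groups below had no called gene. Compared with the median of their own length group, 30 of the 42 members lay above it. Over the 42 members, Spearman's correlation of log2 fold change with transcript length was 0.47, and over all tested genes it was 0.25. Genes share libraries and are no independent replicates, so these values only describe the pattern.

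**Figure D1:**
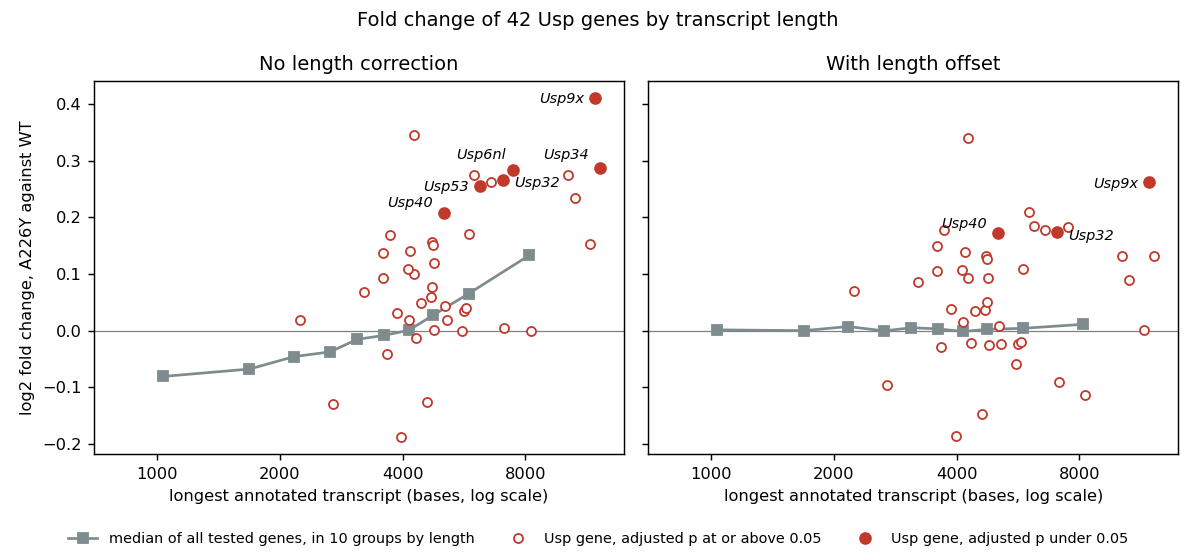
Log2 fold change (A226Y against WT) of the 42 tested *Usp* genes against the length of the longest annotated transcript (bases, log scale), without length correction on the left and with a length offset per library on the right. Filled circles are *Usp* genes with an adjusted p under 0.05, open circles the others, and grey squares the medians of all tested genes in 10 groups of equal size by length. The grey line climbs from −0.08 to 0.13 on the left and stays between −0.0016 and 0.011 on the right, where 3 circles are filled instead of 6.

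The dependence on length could be read mouse by mouse. For each mouse, the deviation of every tested gene from its mean over all mice was regressed on log2 transcript length. This slope, in log2 CPM per doubling of length, was 0.031 ± 0.032 (SD, n = 10) in A226Y and −0.039 ± 0.041 (SD, n = 8) in WT mice. The difference of 0.070 gave p = 0.000548 in a two-sided exact permutation test over the 43758 divisions of the mice. The slope exceeded the WT mean in all 10 A226Y mice and exceeded every WT mouse in 6. With the *Usp* genes taken out of the regression the difference was 0.070 as well. A slope on GC content, in log2 CPM per percent GC and so on another scale, differed by −0.006 (exact p = 0.0954).

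The level of the USPs was set beside this slope in single mice. The median deviation of the 42 members from their own means over all mice lay between −0.04 and 0.15 (log2 CPM) in A226Y, with a median of 0.05, and between −0.22 and 0.07 in WT, with a median of −0.07. WT replicate 14 had the lowest length slope of all mice (−0.096) and the lowest member median (−0.22), with 5 of 42 members above their own mean. WT replicate 6, the one WT mouse with a positive slope (0.011), had the highest member median among the WT mice (0.07) and 29 members above their mean. Among A226Y mice, replicate 22 had the steepest slope (0.096) and the highest member median (0.15), with 35 members above their mean. Other mice did not follow this order. A226Y replicate 15 had a slope of 0.040 and a member median of −0.04, and A226Y replicates 23 and 29, with slopes of −0.0057 and 0.0017, had member medians of 0.05 for each. WT replicate 21, with a slope of −0.0070, had a lower member median (−0.08) than WT replicate 24 (−0.06), whose slope was −0.079. When the slope entered the fit beside genotype, its coefficient was positive in 39 of 42 members. None of these coefficients passed an adjusted p under 0.05, and 15 positive ones had an unadjusted p under 0.05. The slope is drawn from counts against length, and 39 of the 42 members are longer than the median tested gene. Mostly positive coefficients in the members are therefore likely by construction. The median coefficient, per SD of the slope, was 0.07 for the members and −0.01 for all tested genes, of which 28 had a called positive and 8 a called negative coefficient.

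**Figure D2:**
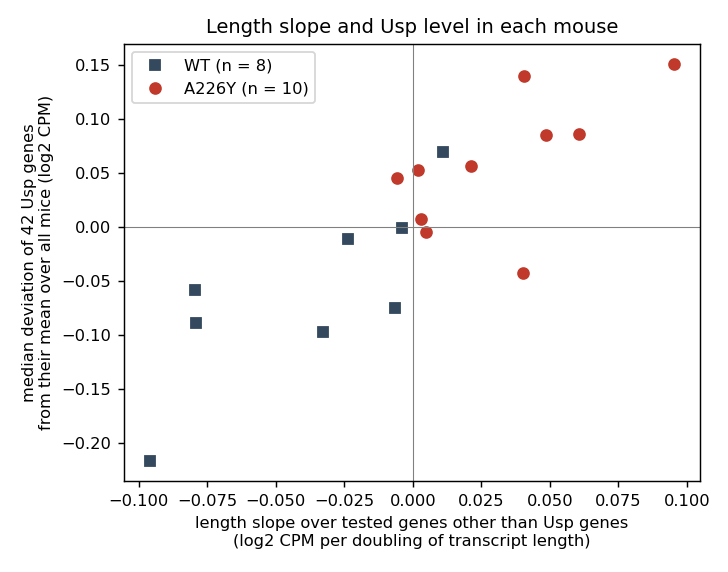
Each point is 1 mouse (WT squares, n = 8; A226Y circles, n = 10). The x axis gives the slope of log2 CPM on log2 transcript length over all tested genes other than *Usp* genes, and the y axis the median deviation of the 42 tested *Usp* genes from their means over all mice (log2 CPM). Mice with a higher slope had, for the most part, more *Usp* mRNA, and the genotypes overlap on both axes. As 39 of the 42 genes are longer than the median tested gene, a rise with the slope is likely by construction.

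To take length out of the comparison, an offset was fitted for each library by a smooth curve of the counts on transcript length, and the test was repeated over all genes. With this offset, 3 members remained called higher, *Usp9x*, *Usp32* and *Usp40*, and none was called lower, where 5.89% of all tested genes were called higher and 5.81% lower. When 1 mouse was left out, between 1 (without WT replicate 21) and 6 members (without A226Y replicate 29) were called higher, and 5 without WT replicate 6. *Usp30* was called lower without A226Y replicate 5 or 18. The shares of all genes in these fits are not given here. Without the offset, leaving out WT replicate 21, A226Y replicate 29 or WT replicate 6 gave 1409, 2560 and 2504 called genes, instead of 1910. With the offset and all mice, 13 members were higher at an unadjusted p under 0.05 (14.1% of all genes) and 1 lower (13.4%). The log2 fold change was smaller with the offset in 33 of the 42 members. Their median remained at 0.09, with 30 of 42 positive, beside a median of 0.0029 and 50.7% positive for all genes. Spearman's correlation of fold change with length was 0.17 over the members and 0.0086 over all genes after the offset. An offset takes out whatever runs with length. Where the dependence on length comes from was not tested.

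The kind of correction mattered for the names on the list. With the length slope of each mouse as a covariate beside genotype, 0 members and 31 of all genes were called by edgeR (2 members and 2021 genes had an unadjusted p under 0.05), and the median log2 fold change over members was 0.0083. Of the 6 called genes, *Usp40* had 0.18 in this fit, *Usp6nl* 0.17, *Usp32* 0.16, *Usp9x* 0.15, *Usp34* 0.14 and *Usp53* 0.02, with adjusted p of at least 0.225. With 4 surrogate variables as covariates, 0 members and 50 genes were called, while 7 members were higher and 2 lower at an unadjusted p under 0.05, as were 1989 genes in either direction. In this second fit the members' median log2 fold change was 0.06, with 27 of 42 positive. Why the calls were lost in these fits was not tested.

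**Figure D3:**
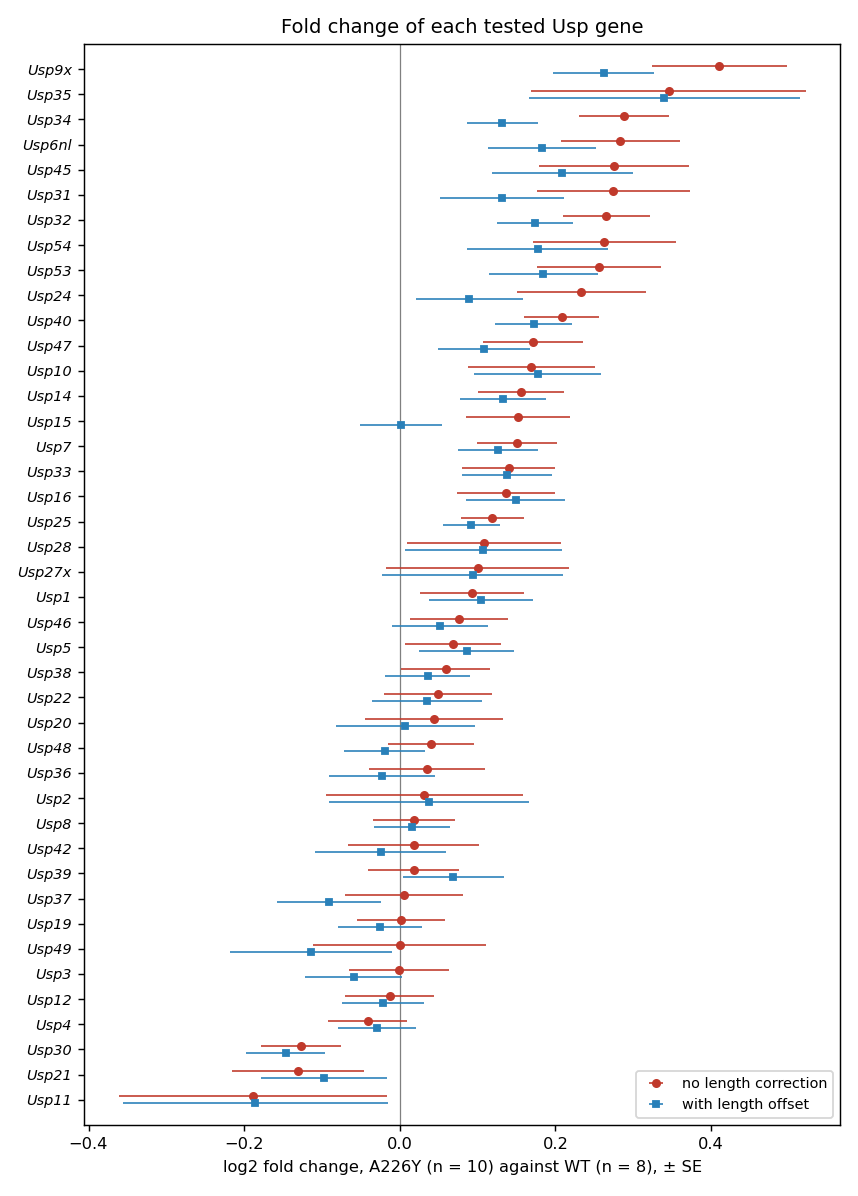
Log2 fold change ± SE of each of the 42 tested *Usp* genes (A226Y, n = 10, against WT, n = 8), without length correction (red circles) and with the length offset (blue squares), ordered by the uncorrected value. Very long members such as *Usp9x*, *Usp34*, *Usp24* and *Usp15* moved most towards 0 with the offset, and members of moderate length such as *Usp10*, *Usp35* and *Usp40* moved little.

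*Usp9x* had the largest change among the called members. It lies on the X chromosome (13071498 to 13173328, plus strand, GRCm38) and encodes a very large protease with many substrates, among them the ligase that marks collided ribosomes. Its level was between 64.3 and 91.9 CPM in A226Y livers (median 71.3) and between 42.9 and 65.9 CPM in WT livers (median 55.2). Of the A226Y mice, 8 were above every WT mouse. The log2 fold change was 0.41 (SE 0.09, adjusted p = 0.00533, edgeR's quasi-likelihood test) and 0.26 (SE 0.06, adjusted p = 0.0153) with the length offset, on a transcript of 11887 bases. It stayed called in all 18 fits that left out 1 mouse, with and without the offset.

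*Usp34* encodes a similarly large protease that acts on axin in Wnt signalling (chromosome 11, 23306895 to 23490560, plus strand). It was measured at 63.5 to 83.5 CPM in A226Y (median 73.0) and at 53.03 to 66.1 CPM in WT livers (median 60.2), with 9 A226Y mice above every WT mouse, the highest such count among the members. It rose by 0.29 on the log2 scale (SE 0.06, adjusted p = 0.00426). Its transcript of 12200 bases was also the longest of the tested members, and with the offset the value was 0.13 (SE 0.05, adjusted p = 0.0664). *Usp34* shares 11.6% of its exon bases with *Ahsa2* on the opposite strand, for which the log2 fold change was 0.06 (adjusted p = 0.543), and the counts do not show strand.

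*Usp32* encodes a membrane-anchored protease of the Golgi and endosomes (chromosome 11, 84984442 to 85140161, minus strand). Its level ran from 31.7 to 36.9 CPM in A226Y (median 34.8) and from 24.2 to 33.3 CPM in WT mice (median 29.7), and 8 A226Y mice lay above all WT mice. It rose by 0.27 on the log2 scale (SE 0.06, adjusted p = 0.00520), and by 0.17 (SE 0.05, adjusted p = 0.0268) with the length offset. *Usp40*, a poorly studied member (chromosome 1, 87945119 to 88008551, minus strand), had 37.8 to 47.3 CPM in A226Y (median 44.7) and 35.7 to 40.5 CPM in WT livers (median 37.4). With a transcript of 5049 bases it was the shortest of the called genes, and its change of 0.21 (SE 0.05, adjusted p = 0.00902) became 0.17 (SE 0.05, adjusted p = 0.0298) with the offset. When length was taken as the union of all exons instead, *Usp40* had 0.11 (adjusted p = 0.163 in edgeR's test). With the offset on the longest transcript it was called in 11 of 18 fits that left out 1 mouse.

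*Usp6nl*, the Rab regulator that tunes uptake of the EGF receptor (chromosome 2, 6322667 to 6446390, plus strand), was at 27.997 to 39.7 CPM in A226Y (median 34.8) and at 24.2 to 32.7 CPM in WT livers (median 27.6). The genotypes overlapped widely, with 6 A226Y mice above every WT mouse. It rose by 0.28 (SE 0.08, adjusted p = 0.0184), with 0.18 (SE 0.07, adjusted p = 0.0909) under the offset. With the offset on exon-union length it was called, at 0.23 (adjusted p = 0.0392). *Usp53* is a protein of cell junctions whose loss causes inherited cholestasis in people, and it was for long classed as lacking protease activity (chromosome 3, 122931493 to 122984510, minus strand). Its level was 9.25 to 12.6 CPM in A226Y (median 10.3) and 7.02 to 10.3 CPM in WT livers (median 8.69). This was the least firm of the 6 calls, with a log2 fold change of 0.26 (SE 0.08, adjusted p = 0.0383) that lost its call in 9 of 18 fits leaving out 1 mouse and had an adjusted p of 0.0928 with the length offset.

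**Figure D4:**
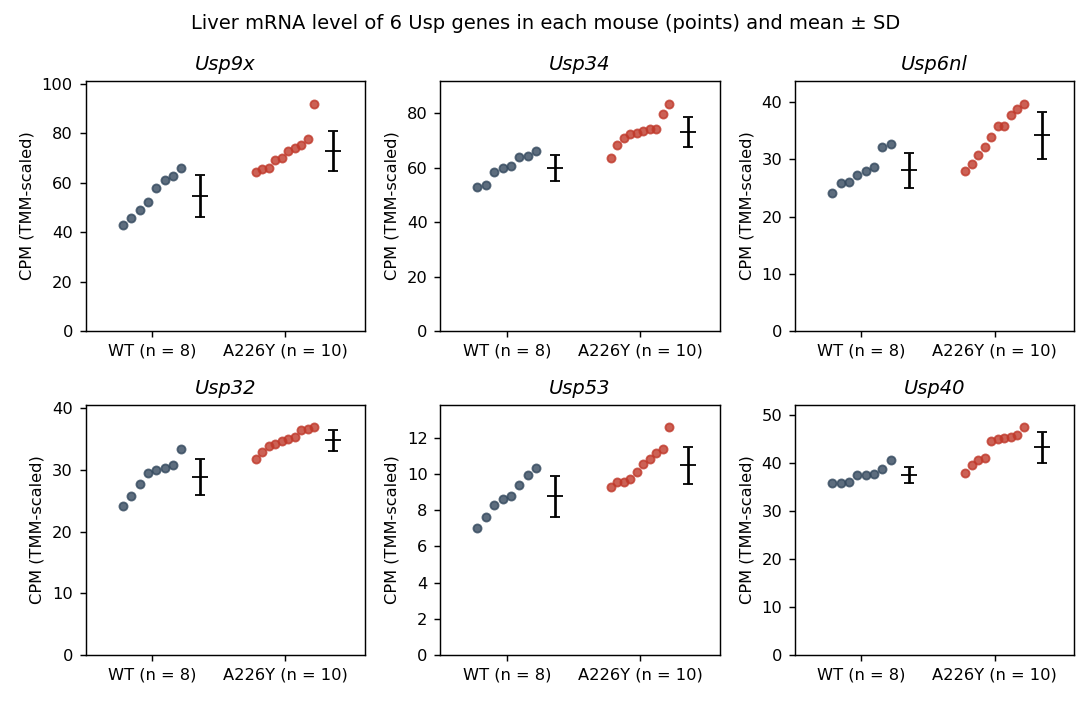
TMM-scaled CPM of the 6 called genes in each mouse, with WT (n = 8) on the left and A226Y (n = 10) on the right of each panel. Points are mice, drawn in order of value, and the bar beside them is the mean ± SD. In every panel the A226Y mean is higher and the highest WT mice reach into the A226Y range.

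The start regions of the called genes differed in their sequence. RefSeq windows of 300 bases (250 before to 50 after the start, build GRCm38.p6) were at hand for 43 members and 4 of the called genes, and 3 are printed here because they belong to the members with the smallest adjusted p among those 4. Capitals mark the GC box, GGGCGG or its reverse complement CCGCCC, matched on both strands with overlapping matches counted.
Usp34, chr11:23306645-23306944, plus strand: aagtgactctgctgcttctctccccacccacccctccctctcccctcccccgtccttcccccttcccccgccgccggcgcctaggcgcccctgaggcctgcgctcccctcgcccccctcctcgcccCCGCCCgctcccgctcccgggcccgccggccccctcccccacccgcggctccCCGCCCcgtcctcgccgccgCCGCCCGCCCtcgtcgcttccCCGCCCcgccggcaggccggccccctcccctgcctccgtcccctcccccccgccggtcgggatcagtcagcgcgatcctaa
Usp32, chr11:85139906-85140205, minus strand: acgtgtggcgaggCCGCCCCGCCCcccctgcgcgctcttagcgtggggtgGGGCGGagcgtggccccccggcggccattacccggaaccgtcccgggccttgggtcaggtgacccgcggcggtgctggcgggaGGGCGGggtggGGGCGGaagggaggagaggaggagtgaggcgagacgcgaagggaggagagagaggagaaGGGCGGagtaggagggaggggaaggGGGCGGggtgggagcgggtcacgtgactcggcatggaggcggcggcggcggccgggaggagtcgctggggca
Usp40, chr1:88008502-88008801, minus strand: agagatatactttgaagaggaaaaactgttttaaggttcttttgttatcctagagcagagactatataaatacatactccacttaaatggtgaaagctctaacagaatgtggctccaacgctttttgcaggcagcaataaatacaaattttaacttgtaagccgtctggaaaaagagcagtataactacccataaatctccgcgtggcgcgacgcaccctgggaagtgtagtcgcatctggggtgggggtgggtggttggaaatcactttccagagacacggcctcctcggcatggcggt
The *Usp32* window held 7 GC boxes and that of *Usp34* 5, at a GC content of 75.7% and 80.3%. The *Usp40* window had a GC content of 45.0%, no GC box and a TATAAA match. The GC box was found in 62.8% of the 43 member windows and in 35.9% of 27025 windows of all genes. CpG dinucleotides numbered 25 per window in the members against 7 in all (medians). Of the 43 member windows, 33 belong to tested members, whereas the 27025 windows include genes not tested in liver. The 2 sets therefore differ in more than the family, and shares over tested genes alone are not given here. Of the other motifs searched on both strands, TATAAA was in 11.6% of member windows (14.2% of all), CACGTG in 11.6% (7.24%), TGACGTCA in 2.33% (1.88%), CCAAT in 32.6% (37.9%) and AAGATGGC in 9.30% (2.88%). These are matches of letters only, and the transcripts were not tested for a link with them.

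Members with known work on the 40S subunit bear on a mutation in a 40S protein. USP10 takes ubiquitin off 40S proteins, RPS2 among them, USP21 does so on other 40S proteins after ribosome collisions, USP16 acts in the maturation of the subunit, and USP36 sits in the nucleolus where ribosomes are built. Of the 5 genes in this role, *Usp9x* included, *Usp9x* was the one called. *Usp10* was measured at 60.6 to 92.6 CPM in A226Y (median 81.8) and at 59.0 to 87.5 CPM in WT livers (median 69.4), so that the ranges covered each other almost wholly. Its log2 fold change was 0.17 (SE 0.08, adjusted p = 0.173) and 0.18 (adjusted p = 0.164) with the length offset. *Usp16* had 36.4 to 51.7 CPM in A226Y (median 39.9) and 35.7 to 41.5 CPM in WT mice (median 38.8), a log2 fold change of 0.14 (SE 0.06, adjusted p = 0.150). *Usp21*, among the shortest tested members with 2706 bases, had 9.73 to 14.6 CPM against 11.5 to 15.7 CPM (medians 12.4 and 13.8) and a log2 fold change of −0.13 (SE 0.08, adjusted p = 0.314). For *Usp36* the values were 19.3 to 26.2 CPM in A226Y and 18.2 to 28.4 CPM in WT (medians 21.8 and 21.02), with a log2 fold change of 0.03 (SE 0.07, adjusted p = 0.795). Small parts of *Usp10* and *Usp16* overlap other genes (1.04% of exon bases with *Gm20388*, and 2.03% with *Cct8* on the other strand).

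At the proteasome, USP14 trims chains from arriving substrates, and USP5 breaks down free ubiquitin chains for reuse. *Usp14* lay between 35.1 and 41.6 CPM in A226Y (median 38.5) and between 30.6 and 39.7 CPM in WT livers (median 34.1). Each of the 10 A226Y livers exceeded the WT mean, and the log2 fold change of 0.16 (SE 0.06) had an adjusted p of 0.0627 in edgeR's test. A share of 26.0% of its exon bases overlaps *Thoc1* on the opposite strand, for which the log2 fold change was 0.15 (adjusted p = 0.175). *Usp5* had 55.5 to 73.8 CPM in A226Y and 54.6 to 70.5 CPM in WT (medians 63.3 and 58.6), a log2 fold change of 0.07 (SE 0.06, adjusted p = 0.488). Its relative *Usp13* had at most 5 counts in any mouse and was not tested.

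The next set holds a splicing factor and proteins long described as poor or inactive enzymes. USP39 works in the spliceosome and has no protease activity. *Usp39*, the shortest tested member (2244 bases), was at 18.5 to 23.4 CPM in A226Y and 17.9 to 22.7 CPM in WT livers (medians 20.7 and 20.98), with a log2 fold change of 0.02 (SE 0.06, adjusted p = 0.871). *Usp54*, the relative of *Usp53*, had 4.13 to 6.25 CPM against 3.32 to 5.12 CPM (medians 5.24 and 4.37), a log2 fold change of 0.26 (SE 0.09, adjusted p = 0.0604) that was 0.18 (adjusted p = 0.210) with the offset. *Usp50* had at most 9 counts and was not tested.

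Of 4 other widely studied members, none was called in the comparison above. *Usp7* was close to the threshold: DESeq2 called it (adjusted p = 0.0284), as did edgeR with other scalings (upper quartile, library size only), with a filter of 10 counts in every mouse, and without WT replicate 6 or 28 or A226Y replicate 29. *Usp7*, which stabilises the p53 ligase MDM2, was measured at 66.1 to 79.7 CPM in A226Y (median 73.7) and 58.7 to 72.1 CPM in WT livers (median 66.1), a log2 fold change of 0.15 (SE 0.05, adjusted p = 0.0538). *Usp2*, a gene under clock control, had the widest spread of this set, 66.9 to 132 CPM in A226Y and 85.5 to 135 CPM in WT mice (medians 122 and 113), with a log2 fold change of 0.03 (SE 0.13, adjusted p = 0.896). For *Usp19*, anchored in the endoplasmic reticulum, the levels were 61.6 to 80.6 and 60.6 to 73.9 CPM (medians 66.0 and 69.2), and the log2 fold change was 0.0015 (SE 0.06, adjusted p = 0.990). *Usp22*, the histone deubiquitinase of the SAGA coactivator complex, had 35.2 to 46.9 and 30.9 to 45.1 CPM (medians 42.1 and 39.6) and a log2 fold change of 0.05 (SE 0.07, adjusted p = 0.678).

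For *Usp15* the value depended on the length used. Its longest transcript has 11525 bases, although its coding sequence has 2943, and it lay between 37.9 and 49.6 CPM in A226Y (median 46.4) and between 32.8 and 47.1 CPM in WT livers (median 41.0). The log2 fold change of 0.15 (SE 0.07, adjusted p = 0.131) became 0.0016 (SE 0.05, adjusted p = 0.989) with the offset on the longest transcript and 0.02 (adjusted p = 0.857) on exon-union length, but stayed at 0.11 (adjusted p = 0.236) with the offset on coding length. *Usp24*, with 10594 bases, went from 0.23 (adjusted p = 0.0631) to 0.09 (adjusted p = 0.412), and *Usp31*, with 10198 bases, from 0.27 (adjusted p = 0.0654) to 0.13 (adjusted p = 0.292). Not every long transcript had a raised value: *Usp49* (8252 bases) and *Usp37* (7111 bases) had log2 fold changes of −0.00022 and 0.0053, which were −0.11 and −0.09 with the offset. Of the exon bases of *Usp49*, 51.2% are shared with *Gm20517* on the same strand, so its counts are uncertain.

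The other tested members are given by role. Of the histone deubiquitinases, none of the 5 tested was called, with log2 fold changes from −0.0013 (*Usp3*) over 0.02 (*Usp42*) to 0.10 (*Usp27x*) and a median of 0.02. All 5 members that act on p53 or in DNA repair had positive values, at 0.04 for *Usp48*, 0.09 for *Usp1*, 0.11 for *Usp28*, 0.15 for *Usp7* and 0.17 for *Usp47*. None of them was called in edgeR's main fit, and *Usp7* and *Usp47* were called in some of its alternatives. USP12 and USP46 are activated by the WD-repeat protein WDR48, and their genes had values of −0.01 and 0.08.

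In the endosomal and Golgi group, *Usp8*, which frees receptors from sorting to the lysosome, had a log2 fold change of 0.02, *Usp20* of 0.04 and *Usp33* of 0.14, beside the called *Usp32* and *Usp6nl*. Members at the endoplasmic reticulum and mitochondria had values of both signs. *Usp30*, the brake on mitophagy at the outer mitochondrial membrane, had the lowest p of the negative values, at −0.13 (SE 0.05, adjusted p = 0.0996), with 16.4 to 19.9 CPM in A226Y and 18.5 to 22.1 CPM in WT livers. The length offset left it at −0.15 (adjusted p = 0.0635), and 1 of 10 A226Y livers exceeded the WT mean. *Usp25* had 0.12 (adjusted p = 0.0519) and *Usp35* 0.35, the latter at only 1.03 to 3.03 CPM over all mice (SE 0.18, adjusted p = 0.196). Of the signalling group, *Usp4* and *Usp11* had negative values of −0.04 and −0.19. Among the rest, *Usp38* had 0.06 and *Usp45* 0.28 (adjusted p = 0.0604).

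Levels between members are compared per kilobase of the longest transcript (RPKM) in WT livers. The highest were *Usp2* at 28.3 ± 4.94 RPKM (SD, n = 8), *Usp4* at 22.6 ± 1.36, *Usp10* at 19.1 ± 2.51 and *Usp5* at 18.7 ± 1.53, and the last 2 lay within each other's SD. *Usp47*, *Usp19* and *Usp7* came next with 14.1 ± 1.48, 14.1 ± 0.957 and 13.97 ± 0.880 RPKM and did not differ beyond their spread. The lowest of the tested members were *Usp35* at 0.410 ± 0.138, *Usp11* at 0.236 ± 0.041 and *Usp27x* at 0.232 ± 0.026 RPKM. The median member had 4.76 RPKM. Among the called genes *Usp40* was the highest at 7.40 RPKM (rank 15 of 42) and *Usp53* the lowest at 1.42 RPKM (rank 35).

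The 13 members that were not tested had few or no reads in liver. *Usp43* had at most 20 counts in a mouse, *Usp51* at most 6 and *Usp44* at most 1. The Y-linked *Usp9y*, the germ-cell genes *Usp26* and *Usp29*, and the 5 genes *Usp17la* to *Usp17le*, near-identical copies in a cluster on chromosome 7, had 0 counts in all 18 mice. A count of 0 allows up to 3 counts, or 0.0483 to 0.126 CPM depending on the mouse, and this limit covers counting error only. Reads that match several copies of the *Usp17l* genes may also have been lost in the counting.

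Other deubiquitinases and proteins with their domains were read from the same fit. Of 40 tested genes in 6 further lists, 7 were called higher and 0 lower, and 5 of these were called higher with the length offset. Over all tested genes the shares called higher were 7.27% and, with the offset, 5.89%. The ovarian tumour (OTU) family had 4 of 14 tested genes called higher. These were *Yod1*, a partner of the p97 segregase (31.2 ± 4.33 CPM in A226Y, n = 10, and 22.9 ± 4.88 CPM in WT, n = 8, SD; log2 fold change 0.45, adjusted p = 0.0129), *Otud6b* (0.27, adjusted p = 0.0147), *Otud7b* (0.25, adjusted p = 0.0172) and *Otud4* (0.22, adjusted p = 0.0276). With the offset *Yod1* and *Otud6b* were still called, at 0.38 and 0.28. The list of JAMM-domain proteins had 3 of 12 called, and all 3 were called with the offset too. It also holds *Psmd7*, *Cops6*, *Eif3f*, *Eif3h* and *Prpf8*, which carry the domain as parts of larger complexes, and *Cops5*, which removes NEDD8. *Psmd14*, the deubiquitinase of the proteasome lid, had 47.6 ± 5.22 CPM in A226Y and 38.7 ± 4.18 CPM in WT livers (log2 fold change 0.30, adjusted p = 0.0120) on a transcript of only 1541 bases, and its value with the offset was 0.37 (adjusted p = 0.0040). *Mysm1*, which acts on histone H2A, had 0.34 (adjusted p = 0.00611), and *Brcc3*, specific for lysine-63 chains, 0.26 (adjusted p = 0.0179).

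No gene of the UCH (3 tested), Josephin (3), MINDY and ZUP1 (5) or remaining USP-fold (3) lists was called, nor any of the 4 ubiquitin genes. Of 10 cofactors of USPs, *Gmps*, the GMP synthetase that binds USP7, was called higher (0.21, adjusted p = 0.0213) and was not called with the offset (0.10, adjusted p = 0.224). The medians of the OTU, JAMM and cofactor lists were 0.09, 0.01 and 0.02 on the log2 scale, beside −0.0044 for all tested genes.

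Markers of the cell types of liver were read in the same libraries. All 41 listed genes were tested, so no defining marker was at 0. The 7 hepatocyte markers summed to 70375 to 141753 CPM in A226Y and 82941 to 168926 CPM in WT livers, with *Cps1* and *Tat* called higher and *Serpina1c* lower. With the length offset *Cps1* and *Tat* were still called and *Serpina1c* was not (−0.34, adjusted p = 0.0556). The 6 Kupffer cell markers summed to 221 to 920 CPM in A226Y (median 303) and 331 to 673 CPM in WT (median 491). *Clec4f* was called lower (−0.65), and the other 5 were not called, with values from −0.49 (*Vsig4*) to 0.83 (*Marco*). The 6 stellate cell markers summed to 302 to 361 CPM (median 340) and 292 to 367 CPM (median 308). *Col1a1* (−0.77) and *Col3a1* (−0.60) were called lower, and the other 4 were not called, with values from −0.17 (*Lrat*) to 0.18 (*Dcn*). Sinusoidal endothelial markers summed to 242 to 358 and 247 to 331 CPM, cholangiocyte markers to 13.1 to 29.9 and 12.1 to 25.9 CPM, B cell and plasma cell markers to 11.4 to 44.3 and 9.24 to 95.5 CPM, and T cell markers to 2.35 to 6.11 and 3.09 to 10.8 CPM, with none called. The part of these differences in the levels of the USPs was not tested.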

How the data were processed

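Liver RNA of 10 A226Y and 8 WT mice was analysed, 1 library per mouse. For each mouse the authors deposited whole-number read counts per Ensembl gene, which were not normalized. The study's methods name RSEM with an Ensembl annotation and single-end reads, whereas the submitters' processing notes name fastp, STAR, featureCounts and GRCm38, and which of these made the deposited counts is not given in the sources used here. The lists hold 22524 genes, of which 22291 were matched to a symbol in GENCODE M21 (GRCm38) and 233 were not. The counts do not show strand, so overlapping genes are uncertain.

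Genes that reached 10 counts in 50% or more of either genotype's mice were tested with edgeR 4.0.16 (R 4.3.3): TMM scaling, quasi-likelihood fit, no covariates, two-sided, Benjamini-Hochberg adjustment over all tested genes. The labels do not say how mice relate beyond being separate animals. CPM and RPKM were computed from the deposited counts with the TMM-scaled library sizes, RPKM with the longest annotated transcript. Total counts were at least 23850565 per mouse and the common biological coefficient of variation was 0.194. Called members had at least 180 counts in every mouse, while *Usp11* and *Usp27x* had as few as 18 and 25, where counting error is of the size of the spread between mice. No pair of mice of one genotype had counts within sampling noise (chi-square per degree of freedom at least 19.2).

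Transcript length was known for 99.6% of the tested genes. The length offset was a lowess curve per library of log2 CPM (pseudocount 0.5, span 0.3, 3 iterations) on log2 transcript length. Alternatives were other scalings, filters, lengths and tests (DESeq2 1.42.0, limma-voom 3.58.1), a GC offset, the length slope or 4 surrogate variables (sva 3.50.0) as covariates, and leaving out each mouse. The coefficients of the length slope were read from its fit after seeing the data. The test and the offset were also run on simulated counts, and the outcome is not given here. Where a length bias was simulated, it was equal in every A226Y mouse and larger than the slope difference observed.

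The members, roles, lists and markers were chosen with earlier results of these data known. Members are given in full if they had an adjusted p under 0.05, act at the 40S ribosome, the proteasome or in splicing, are *Usp7*, *Usp2*, *Usp19*, *Usp22* or *Usp6nl*, or are among the 3 longest or 3 shortest tested. The other tested members are named by role, and *Usp24*, *Usp25*, *Usp30*, *Usp31*, *Usp35*, *Usp37*, *Usp45* and *Usp49* were singled out after their values were seen. Of other genes, *Rps2* and up to 4 called genes per list with the largest change are named. Some genes that were not called are named as well. They overlap members, belong to the JAMM list, or are extremes among the Kupffer and stellate cell markers. The study's *Rps2*-loxP line was not used here.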

Additional observations from a re-analysis of the deposited data

Results flagged for a closer look

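On the log2 CPM scale, 1 mouse lay farther from the others than Dixon's 95% critical value allows in 8 of 86 groups (each tested member, and the length slope, in each genotype), where chance gives about 1 in 20. Levels below are in CPM, and each gap is a share of the group's range of log2 CPM. Among A226Y mice these were replicate 29 for *Usp28* (5.58 CPM against 6.98 to 9.03 in the others, gap 0.466), replicate 23 for *Usp8* (43.5 CPM against 51.2 to 57.9, gap 0.573) and replicate 7 for *Usp9x* (91.9 CPM against 64.3 to 77.7, gap 0.469). Among WT mice they were replicate 13 for *Usp12* (24.5 CPM against 27.99 to 31.1, gap 0.558), replicate 6 for *Usp36* (28.4 CPM against 18.2 to 21.9, gap 0.582), replicate 24 for *Usp38* (22.05 CPM against 24.2 to 25.8, gap 0.586), replicate 33 for *Usp54* (3.32 CPM against 4.17 to 5.12, gap 0.527) and replicate 6 for *Usp8* (46.7 CPM against 51.3 to 55.3, gap 0.557). *Usp9x* is the one called gene among them, and without A226Y replicate 7 it was still called.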

How the results depend on the processing

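Of 1302 pairs of a tested member and an alternative, 1234 kept the side of the threshold, 39 gained a call and 29 lost one, with no called value changing sign. With library sizes alone, 14 members and 1399 of all genes were called higher. There 67.9% of all calls were higher instead of 50.8%, and the median of all genes shifted to 0.04. DESeq2 called 11 members higher (the 6 and *Usp7*, *Usp14*, *Usp24*, *Usp25* and *Usp45*) and 1247 genes, against 971 genes in the main fit. Upper quartile scaling and 10 counts in every mouse each gave 7 members (the 6 and *Usp7*). The genes called higher there were 935 of 13353 and 940 of 12235. The length offset on the longest transcript gave 3 members (*Usp9x*, *Usp32* and *Usp40*) and 787 genes called higher. On the exon union it gave 3 members (*Usp9x*, *Usp32* and *Usp6nl*) and 772 genes. With the length slope or 4 surrogate variables as covariates, 0 members were called higher. Of all genes, 31 and 50 were called in these last 2 fits instead of 1910, and with the slope the members' median was 0.0083. With coding length, the length offset gave 5 called members (*Usp14*, *Usp32*, *Usp53*, *Usp6nl* and *Usp9x*), beside 924 genes called higher. Leaving out 1 mouse gave 5 to 14 members called higher and 1255 to 2560 genes called in all (1255 without WT replicate 14). There were 14 members without WT replicate 6 (1268 genes higher) and 11 without A226Y replicate 29 (1188 genes higher). Under the length offset, 1 to 6 members were higher (1 without WT replicate 21, 5 without WT replicate 6, 6 without A226Y replicate 29). There, 0 to 1 were lower (*Usp30*, without A226Y replicate 5 or 18). The shares of all genes in these offset fits are not given here. *Usp9x*, *Usp32*, *Usp34*, *Usp40* and *Usp6nl* stayed called in each of these 18 uncorrected fits. Under the offset *Usp9x* was called in 18, *Usp32* in 16 and *Usp40* in 11 of them. The difference in length slope was 0.062 to 0.077 when 1 mouse was left out (exact p of at most 0.00129). The causes were not tested. No paired analysis was possible because the genotypes share no replicate numbers. Members with low counts, such as *Usp35* and *Usp11*, had standard errors of 0.18 and 0.17, which limits what can be seen there, although *Usp35* was called without WT replicate 6.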
